A study of Mus musculus with 26 samples.

Results

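Pluripotent mouse lines that came from the same kind of source cell, the germline stem cell (GSC), by 2 routes were set against each other: 4 GSC-derived induced pluripotent stem cell (iPSC) lines against 4 germline-derived pluripotent stem cell (gPSC) lines. They were chosen by label and are 8 of the 13 lines of the series and 16 of its 26 arrays, with 2 technical arrays, a and b, for each line. All lines share the OG2 strain background, which carries a green fluorescent protein gene under the control of Pou5f1 regulatory sequence. The labels do not give the factors used for the iPSC lines, how the gPSC lines were obtained, or from which GSC line each was derived, and the title of the series frames the question as one of epigenetic memory after reprogramming. The other lines of the series (2 GSC lines and 1 line each of embryonic stem cells, fibroblasts and fibroblast-derived iPSC) are quoted as reference levels. Of these, only the 2 GSC lines entered the estimate of the spread.

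Factor reprogramming forces a source cell into the pluripotent state with introduced transcription factors, among them in the classical mixture Pou5f1, Sox2, Klf4 and Myc. Germline stem cells, the cultured form of spermatogonial stem cells, are unipotent but can also convert to pluripotency in culture, and the resulting lines resemble embryonic stem cells (ESC). In both kinds of line the pluripotency network led by Pou5f1, Sox2 and Nanog sustains itself, and genes of the germline programme such as Dazl and Ddx4 mark the source cell. Mouse pluripotent lines are often grown on feeder fibroblasts, so that RNA of a culture can hold fibroblast transcripts.

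Values are log2 intensities after background correction and normalization, and differences are iPSC minus gPSC in log2 units, so that 1 is a 2-fold difference. Levels of different genes come from different probes and are not compared. The weakest detected signal on these arrays lay at 4.56 to 4.75. Detection reached 12439 to 13808 of 25697 probes per array, and arrays a and b of a line correlated at 0.99546 to 0.99697 across genes. The 4 a arrays of the gPSC lines were the brighter ones before normalization, with a median intensity of 100.3 to 102.9. The a arrays of the iPSC lines had 89.17 to 91.01. The b arrays ran from 90.72 to 93.24 for iPSC and from 89.48 to 93.96 for gPSC. The a arrays of GSC (100.6 and 101.4), ESC (100.1) and fibroblast-derived iPSC (102.6) read like those of gPSC, and together these are called the array set. The lists and 60 named genes were therefore also computed on the b arrays alone, where none of the 60 changed sign. Whether lines of a route came from separate derivations is stated only as independent lines, so the p-values measure the spread between these lines.

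Pluripotency markers were present in every line. All 6 markers of pluripotent cells were detected on all 16 arrays by at least 1 probe, with mean levels of 10.7 to 11.2 in the iPSC lines and 9.46 to 10.7 in the gPSC lines, against 6.5 in GSC and 4.54 in fibroblasts. These means include a Tdgf1 probe that was undetected in gPSC 3 and gPSC 4, and over the other 5 markers the lines ran from 10.8 to 11.3 for iPSC and from 10.5 to 11.2 for gPSC. Germline stem cell markers averaged 5.85 to 6.43 in iPSC lines and 5.62 to 6.45 in gPSC lines, against 7.88 in GSC. Among them Etv5 went the other way, at 7.02 to 8.41 in the iPSC and gPSC lines, against 5.35 and 6.23 in GSC. Ret was undetected on all 16 arrays. Markers of fibroblasts and feeder cells spread widely, over 5.17 to 7.04 in iPSC lines and 5.93 to 9.10 in gPSC lines, against 9.53 in the fibroblast line. The highest of these was gPSC 1 and the lowest iPSC 3. The fibroblast markers disagreed: Dcn and Lum read 11.68 and 11.21 in gPSC 1, against 7.30 and 5.21 in the fibroblast line. All other fibroblast markers tested were lower in gPSC 1 than in the fibroblast line.

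Across 10660 genes, no gene separated the routes by the full criterion. limma called 0 genes (0%) at an adjusted p under 0.05 with at least a 2-fold difference, and 1 gene (0.00938%), Iapp, at the adjusted p alone. At an unadjusted p under 0.05 there were 439 genes higher in iPSC (4.12%) and 391 lower (3.67%). On the b arrays limma again called 0 genes, with 640 at an unadjusted p under 0.05. In the line means 56 genes were at least 2-fold higher and 102 at least 2-fold lower in iPSC. The 95% interval of the difference lay within 2-fold either way for 9111 genes (85.5%), which leaves a 2-fold difference outside the interval for most genes. The median size of a difference, regardless of sign, was 0.15.

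Lines did not fall into 2 separate groups by route. The root mean square difference between 2 lines over all genes was 0.314 to 0.672 among iPSC lines (median 0.461, 6 pairs) and 0.403 to 0.817 among gPSC lines (median 0.564, 6 pairs), and it was 0.321 to 0.908 between the routes (median 0.537, 16 pairs). These pairs share lines and carry no test. Within this set, the closest line of 5 of the 8 lines belonged to the other route, in the means and on the b arrays alike. Each line had fewer possible neighbours in its own route than in the other. The mean distance was smaller to the own route for iPSC 1, iPSC 3, iPSC 4, gPSC 1 and gPSC 4. It was smaller to the other route for iPSC 2, gPSC 2 and gPSC 3. iPSC 3 and gPSC 3 were each other's closest line (0.362), as were iPSC 2 and gPSC 4 (0.321), and gPSC 2 lay closest to iPSC 2 (0.334). Among the iPSC lines only iPSC 1 and iPSC 4 were closest to each other (0.314), and gPSC 1 was closest to gPSC 4 (0.43). Outside this set, the fibroblast-derived iPSC line lay closer still to gPSC 4 (0.152) and to iPSC 2 (0.301).

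**Figure D1:**
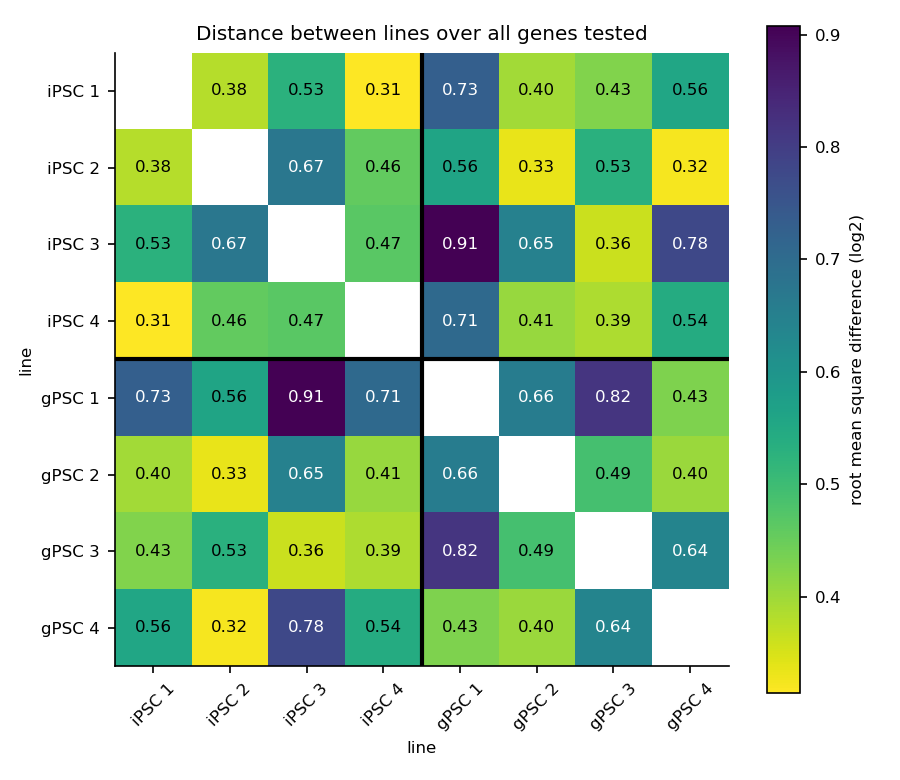
Root mean square log2 difference over 10660 genes between each pair of the 8 lines, mean of both arrays, with iPSC lines first; the black lines separate the routes. Small values (light) occur in the blocks between the routes, such as 0.32 for iPSC 2 and gPSC 4, and the largest, 0.91, lies between iPSC 3 and gPSC 1.

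The first principal component of the 8 lines held 57.8% of their variance and ran across both routes. Its scores were -12.5, 14, -42.5 and -14.6 for iPSC 1 to 4 and 48.7, 4.56, -29.1 and 31.5 for gPSC 1 to 4. iPSC 3 and gPSC 3 stood at one end and gPSC 1 and gPSC 4 at the other. The median SD of a gene was 0.212 among the iPSC lines and 0.235 among the gPSC lines, and 5964 genes (55.9%) varied more among the gPSC lines. A range over 2 log2 units occurred in 209 genes among the iPSC lines and in 458 among the gPSC lines, with 106 in both. Without iPSC 3 the count among iPSC lines was 37, and without gPSC 1 the count among gPSC lines was 195.

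All 4 iPSC lines lay above all 4 gPSC lines for 195 genes (1.83%) and below them for 196 (1.84%). Only 5 genes (0.0469%) were also at least 2-fold different and kept this separation on the b arrays, all of them higher in iPSC, while 0 genes (0%) met the same criterion in the lower direction. They are Stard8, Gprc5a, Lama1, Pltp and Hs3st1, and they are described next with Dpp4, whose groups overlap. As the 5 genes were picked for non-overlap and fold, the counts and folds that follow describe them. The fibroblast-derived iPSC line read 5.15 for Stard8, 4.955 for Gprc5a, 6.70 for Lama1, 7.19 for Pltp, 5.19 for Hs3st1 and 7.83 for Dpp4. Each of these values lay within the range of the gPSC lines, so the differences were not shared by this other iPSC line. In the line means alone, without the b-array condition, non-overlap with at least 2-fold also gave 5 genes higher and 0 lower. Without 1 line this looser criterion, which then asks still less, gave 4 to 68 genes higher (68 without gPSC 3, 21 without iPSC 2, 15 without iPSC 4, 12 without iPSC 3, 8 without gPSC 2). It gave 0 to 40 lower (40 without gPSC 3, 29 without iPSC 2, 7 without gPSC 2, 1 each without iPSC 3 or gPSC 1).

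Stard8 encodes a protein with a lipid-binding START domain. Its level was 7.83, 6.67, 7.27 and 6.64 in iPSC 1 to 4, against 4.95, 5.32, 6.35 and 5.03 in gPSC 1 to 4. Every iPSC line was above every gPSC line, with gPSC 3 nearest to the iPSC range, while the GSC lines had 5.42 and 5.21 and ESC had 6.26. The difference was 1.69 ± 0.35 (SE, 95% interval 0.90 to 2.49, adjusted p = 0.597), and 1.78 on the b arrays. A second Stard8 probe gave 1.56. Leaving out single lines moved the difference between 1.45 and 2.00.

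Gprc5a encodes an orphan G protein-coupled receptor inducible by retinoic acid. The iPSC lines had 6.70, 6.48, 6.64 and 6.68, against 5.86, 5.84, 5.07 and 4.60 in the gPSC lines. The iPSC values were tight (SD 0.10) and the gPSC values spread (SD 0.62), and the gene was detected on 8 of 8 iPSC arrays, but on 6 of 8 in gPSC, with gPSC 4 undetected. The difference was 1.28 ± 0.26 (adjusted p = 0.597) and 1.16 on the b arrays.

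Lama1 encodes the alpha chain of the laminin of early embryonic basement membranes. Its level was 9.47, 8.41, 7.02 and 7.68 in iPSC 1 to 4, against 6.79, 6.46, 6.95 and 6.31 in gPSC 1 to 4. The groups were separate but nearly touched at iPSC 3 and gPSC 3, where they overlapped on the a arrays alone, and most of the spread was on the iPSC side. The difference was 1.52 ± 0.44 (adjusted p = 0.627), 1.61 on the b arrays and 1.07 without iPSC 1.

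Pltp encodes the phospholipid transfer protein of plasma. Its level was 9.72, 8.31, 8.22 and 8.41 in iPSC 1 to 4, against 7.47, 7.10, 7.98 and 7.11 in gPSC 1 to 4. iPSC 1 was far above the other iPSC lines and gPSC 3 close below them. The difference was 1.25 ± 0.35 (adjusted p = 0.627), 1.32 on the b arrays and 0.90 without iPSC 1, and a second probe gave 0.88. Hs3st1, a sulfotransferase that modifies heparan sulfate, had 7.15, 5.81, 6.20 and 5.99 in the iPSC lines, against 5.41, 4.99, 5.55 and 5.14 in the gPSC lines. Again iPSC 1 was highest, and the lowest iPSC line was close to the highest gPSC line. The difference was 1.01 ± 0.27 (adjusted p = 0.627), 0.95 on the b arrays and 0.72 without iPSC 1.

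Dpp4, a cell-surface peptidase, ran the other way. It had 6.23, 7.05, 6.28 and 6.26 in the iPSC lines, against 8.14, 6.77, 7.73 and 7.85 in the gPSC lines, and 7.52 in ESC. The groups overlapped only because gPSC 2 lay below iPSC 2. The difference was -1.17 ± 0.30 (adjusted p = 0.627) and -1.22 on the b arrays.

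**Figure D2:**
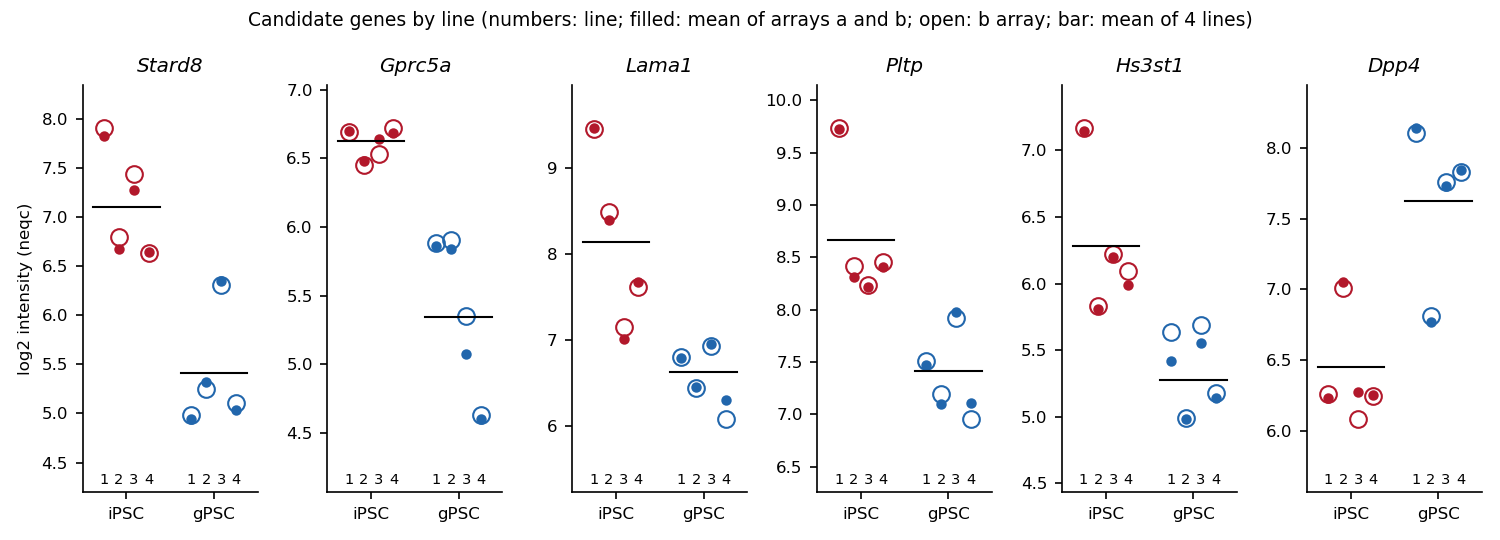
Log2 intensity of 6 candidate genes in each line, iPSC left and gPSC right in each panel; filled points are means of arrays a and b, open points the b array alone, and bars the mean of 4 lines. Stard8, Gprc5a, Lama1, Pltp and Hs3st1 have all iPSC lines above all gPSC lines with both kinds of point, and Dpp4 has the reverse order except for iPSC 2 and gPSC 2.

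The single adjusted call, Iapp, which encodes the islet hormone amylin, rested on the a arrays. The line means were 4.53, 4.33, 4.38 and 4.35 in iPSC and 5.25, 5.32, 5.42 and 5.30 in gPSC (difference -0.93 ± 0.08, adjusted p = 0.0111). The gene was detected on 0 of 8 iPSC arrays and on the 4 a arrays of gPSC, where it read 6.04, 6.19, 6.47 and 6.05. On the b arrays of the same gPSC lines it read 4.46, 4.45, 4.37 and 4.55, at the level of the iPSC b arrays (4.52, 4.27, 4.22 and 4.27). The difference on the b arrays was -0.14, and against the detection limit gPSC was at least 1.65-fold higher in the means. The a arrays of ESC (5.67), of the GSC lines (5.49 and 5.52) and of the fibroblast-derived iPSC line (6.03) were high as well. The b arrays read 4.38 in ESC, 4.437 and 4.439 in the GSC lines and 4.61 in the fibroblast-derived iPSC line.

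Testing the array difference itself, limma found 5 genes (0.0469%) whose a minus b value differed between the routes at an adjusted p under 0.05 and 2-fold, and 68 genes at the adjusted p alone. For Iapp the a minus b value averaged 0.15 in iPSC and 1.73 in gPSC lines (difference -1.58 ± 0.12, adjusted p = 0.000122). Rhbdl1, a rhomboid-family gene, had -0.17 in iPSC and 1.16 in gPSC lines. Grb2, an adaptor of receptor tyrosine kinase signalling, had -0.30 in iPSC and 0.83 in gPSC lines. Rad21, a cohesin subunit, went the opposite way with 0.39 in iPSC and -0.69 in gPSC lines. For Iapp the means of both arrays thus hold a difference that the b arrays do not show. On the a arrays of the iPSC and gPSC lines, the array set and the route cannot be told apart.

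**Figure D3:**
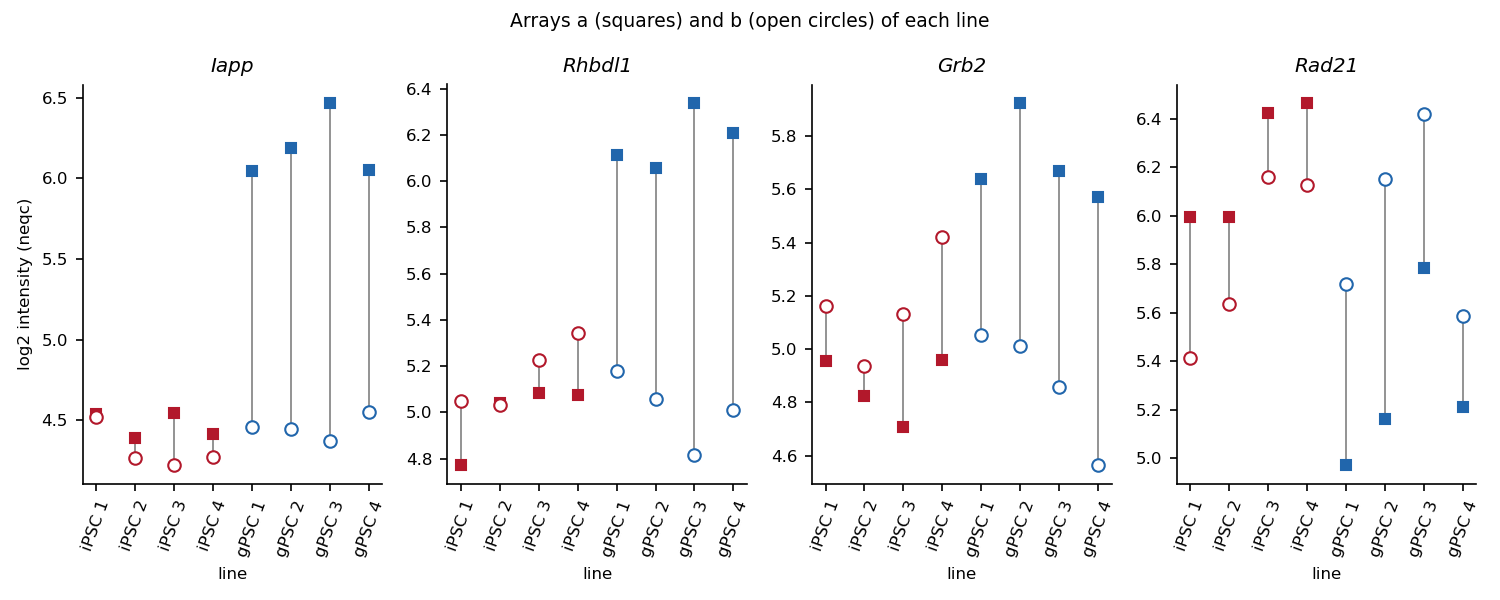
Log2 intensity of 4 genes on array a (filled squares) and array b (open circles) of each line, iPSC lines left (red) and gPSC lines right (blue). The a and b arrays of the iPSC lines lie close for Iapp and Rhbdl1, while the a arrays of all 4 gPSC lines lie well above their b arrays (below them for Rad21).

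No gene of the pluripotency network met the full criterion. All iPSC lines lay below all gPSC lines for 1 of its genes, against 196 of 10660 genes tested (1.84%). Of 30 genes tested, 21 were higher and 9 lower in iPSC, 0 were called, and the median difference was 0.12, against 0.01 over all genes with 5482 of 10660 higher. Without single lines the median ran from 0.05 (without iPSC 1 or gPSC 4) to 0.28 (without gPSC 3). The 95% interval lay within 2-fold for 22 of the 30 (73.3%), against 85.5% of all genes. Pou5f1, the central factor of the network, averaged 11.83 ± 0.19 in iPSC and 11.78 ± 0.22 in gPSC lines (SD, n = 4 each; difference 0.05 ± 0.32 SE). Its sign turned when gPSC 2 or iPSC 1 was left out. Sox2 averaged 8.78 ± 0.35 in iPSC and 8.54 ± 0.45 in gPSC lines. Nanog had 12.04, 11.37, 11.68 and 11.95 in the iPSC lines, against 10.79, 11.50, 11.94 and 10.94 in the gPSC lines. The Nanog values overlapped, with gPSC 1 and gPSC 4 lowest, and the difference was 0.47 ± 0.25. Klf4, a factor of the naive state and of the reprogramming mixture, differed by 0.58 ± 0.27.

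Tdgf1, the gene of the Nodal co-receptor Cripto, showed the largest measured difference of the network (3.06 ± 1.30, adjusted p = 0.627), but its 2 probes disagreed. The brighter probe, used in the fit, had 10.57, 10.34, 9.38 and 10.22 in the iPSC lines, against 9.25, 10.33, 4.28 and 4.39 in the gPSC lines. It was undetected on both arrays of gPSC 3 and gPSC 4, and it read 4.32 in the fibroblast-derived iPSC line. The second probe had 7.26, 6.97, 5.88 and 6.89 in the iPSC lines, against 6.16, 7.17, 6.78 and 6.81 in the gPSC lines, and 6.82 in the fibroblast-derived iPSC line. It was detected on all 16 arrays, was at background in GSC (4.24) and fibroblasts (4.23), and gave a difference of 0.02. On this probe gPSC 3 and gPSC 4 lay between gPSC 1 and gPSC 2. The difference of 3.06 therefore holds for the first probe only.

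Signalling lists around the network were mixed. Of 18 genes of LIF, STAT3 and FGF signalling 12 were higher and 6 lower in iPSC (median 0.09, from 0.03 without gPSC 4 to 0.15 without gPSC 1), with the STAT3-responsive kinase genes Pim1 at 0.41 ± 0.12 and Pim3 at 0.48 ± 0.18. Of 17 Nodal, Wnt and BMP genes 7 were higher and 10 lower (median -0.19, but 0.11 with 9 higher and 8 lower without iPSC 3, and -0.30 without iPSC 2). Of 22 primed epiblast and early germ layer genes 11 were higher and 11 lower (median -0.01, from -0.07 without gPSC 3 to 0.03 without gPSC 4), with the neural plate factor Zic2 at -0.65 ± 0.22 and the organizer factor Gsc at -0.59 ± 0.24. None was called, and for each of these lists the b arrays gave a median within 0.1 of these values.

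Lefty1, a secreted inhibitor of Nodal, and Trh, the precursor of thyrotropin-releasing hormone, varied by line and not by route. Lefty1 had 9.72, 10.42, 5.15 and 9.93 in the iPSC lines, against 9.99, 10.94, 6.66 and 11.49 in the gPSC lines. Trh had 10.17, 12.19, 5.33 and 8.08 in the iPSC lines, against 11.36, 11.26, 6.64 and 11.94 in the gPSC lines. For both genes iPSC 3 and gPSC 3 were the lowest line of their group.

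Extraembryonic and epithelial genes were mostly higher in iPSC. All 16 trophectoderm and placenta genes tested were higher (median 0.60) and 15 of them on the b arrays, but 0 were called. Without iPSC 3 the median was 0.18, with 14 higher and 2 lower. The list mean was 6.04, 5.93, 7.65 and 6.45 in iPSC 1 to 4, against 5.47, 5.57, 6.46 and 5.77 in gPSC 1 to 4. iPSC 3 was far above the other lines, and gPSC 3 was the highest gPSC line. Over 4 trophectoderm markers the mean ran from 4.90 to 6.79 in iPSC and from 4.64 to 5.44 in gPSC lines. By gene the difference was 1.13 for Krt7, 0.79 for Gata3, 0.25 for Cdx2 and 0.07 for Eomes. Krt7 and Gata3 read 5.965 and 6.356 in the fibroblast line. Cdx2 was detected on 4 arrays of iPSC lines and 1 array of gPSC lines.

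Krt18, a keratin of simple epithelia, had 7.03, 6.40, 10.90 and 9.08 in iPSC 1 to 4, against 5.34, 5.95, 8.57 and 6.38 in gPSC 1 to 4. The difference of 1.79 ± 1.01 (adjusted p = 0.627) came with overlapping groups and was 0.94 without iPSC 3. Cldn4, a tight junction gene, had 10.71, 10.21, 11.56 and 11.29 in iPSC lines, against 9.28, 9.64, 10.39 and 10.01 in gPSC lines. Here only iPSC 2 and gPSC 3 overlapped, and the difference was 1.11 ± 0.32 (adjusted p = 0.627). Tead4, a trophectoderm transcription factor, differed by 0.63 ± 0.20 and Gata2 by 0.62 ± 0.26.

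Of 25 epithelial adhesion genes 21 were higher and 4 lower (median 0.26, from 0.21 to 0.35 without single lines). Spint1, an epithelial protease inhibitor, had all iPSC lines above all gPSC lines at a small difference (0.42 ± 0.14), but not on the a arrays alone. The same held in the means for Ovol1, an epithelial transcription factor near the detection limit (0.26 ± 0.10). Its groups overlapped on the a arrays and on the b arrays. Zeb1, the repressor of epithelial genes, lay lower in every iPSC line, at 6.22, 6.42, 6.25 and 6.15, against 7.17, 6.62, 6.67 and 6.54 in the gPSC lines (-0.49 ± 0.14, adjusted p = 0.627, and -0.53 on the b arrays). The groups were separate on the a arrays and on the b arrays.

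Of 17 primitive endoderm genes 13 were higher and 4 lower in iPSC (median 0.45, and 0.47 on the b arrays, 0.26 without iPSC 1 and 0.27 without gPSC 2), none called. Besides Lama1, they included Amn, an endocytic receptor subunit of visceral endoderm. Amn had 9.11, 8.05, 6.13 and 7.11 in the iPSC lines, against 5.96, 6.09, 6.62 and 6.18 in the gPSC lines. iPSC 1 and iPSC 2 were high, iPSC 3 was inside the gPSC range, and the difference was 1.39 ± 0.53. Gata6, a master factor of this lineage, had 7.61, 6.66, 8.37 and 6.59 in the iPSC lines, against 5.92, 5.45, 7.55 and 5.35 in the gPSC lines. The high gPSC line was gPSC 3, and the difference was 1.24 ± 0.54. Gata6 was highest in iPSC 3, where Lama1 and Amn were at their lowest among the iPSC lines. In the list 3 genes were at least 2-fold higher and 1 at least 2-fold lower, against 56 and 102 of all 10660 genes. Over 6 markers of the lineage the mean ran from 5.32 to 6.32 in iPSC and from 4.96 to 5.41 in gPSC lines. Of these, Gata4 (-0.14) and Foxa2 (-0.03), detected on few arrays, were lower in iPSC and the others higher.

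In the list for the two-cell-like state, which rare cells of mouse pluripotent cultures enter, 12 of 13 genes were higher and 1 lower in iPSC (median 0.43), none called. Without single lines the median was 0.23 (without gPSC 2), 0.27 (without iPSC 2), 0.28 (without iPSC 3) and up to 0.73 (without iPSC 4). Tmem92 had 7.87, 7.82, 7.47 and 6.39 in the iPSC lines, against 5.73, 5.42, 7.36 and 6.18 in the gPSC lines. Tcstv1 had 8.60, 8.40, 8.63 and 7.21 in the iPSC lines, against 7.28, 6.07, 8.12 and 7.18 in the gPSC lines. In both genes iPSC 4 was the lowest iPSC line, inside the gPSC range, and gPSC 3 the highest gPSC line. Tcstv3, a near copy of Tcstv1 whose probe may share its signal, followed it (0.99 ± 0.45). Rhox5, an X-linked homeobox gene active in pluripotent and placental cells, had 12.07, 12.00, 12.14 and 10.68 in the iPSC lines, against 9.50, 10.97, 12.07 and 10.63 in the gPSC lines. Here too iPSC 4 was the lowest iPSC line and gPSC 3 the highest gPSC line (0.93 ± 0.52).

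**Figure D4:**
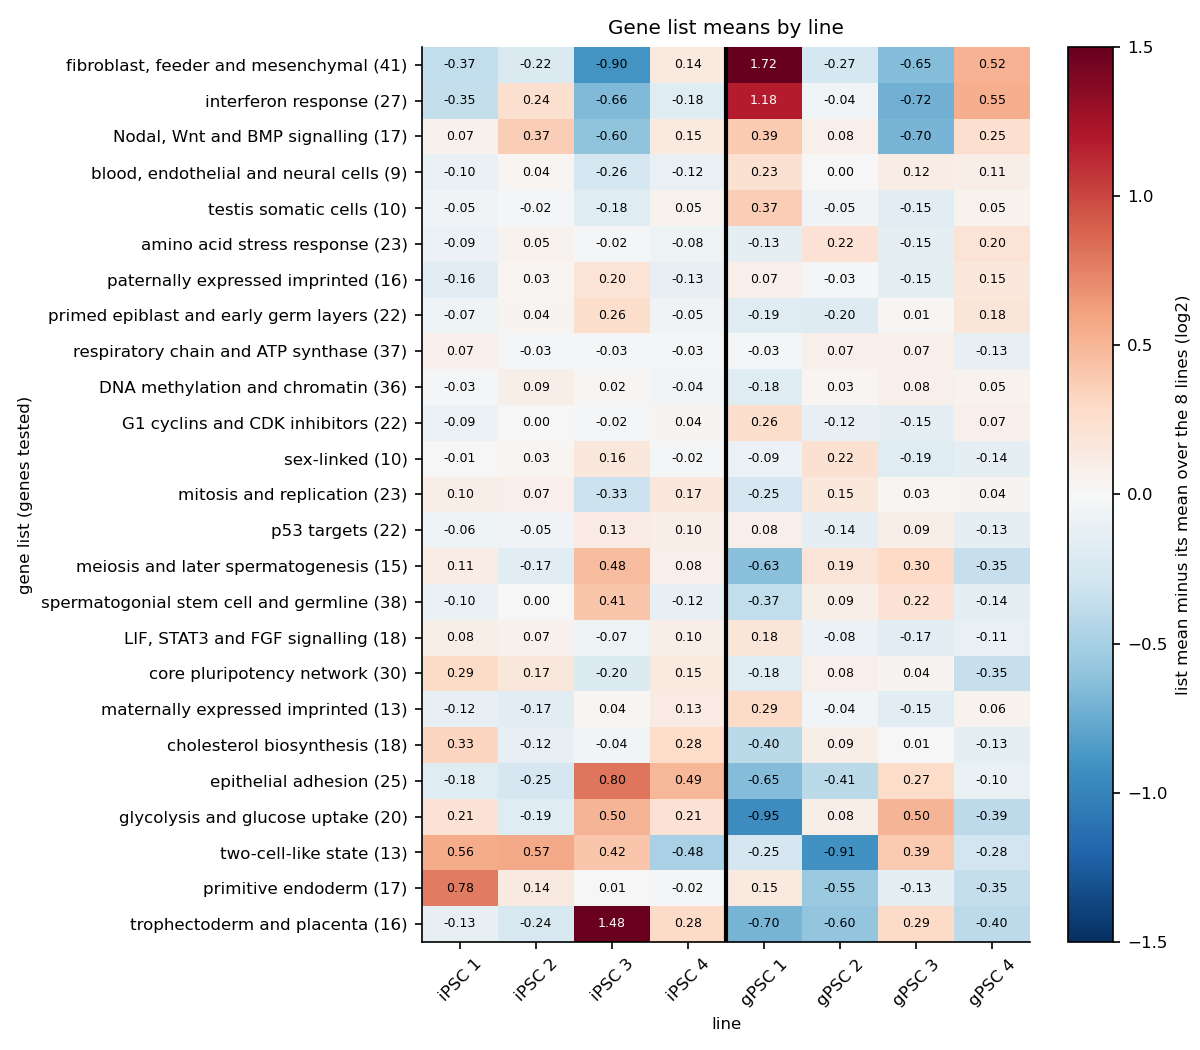
Mean log2 level of each of 25 gene lists in each line, as its deviation from the mean of the 8 lines, with the number of genes tested in brackets; iPSC lines left and gPSC lines right of the black line. The strongest deviations belong to single lines: gPSC 1 in the mesenchymal list (1.72) and iPSC 3 in the trophectoderm list (1.48).

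Mesenchymal and interferon genes were mostly lower in iPSC, and gPSC 1 carried much of the difference. Of 41 fibroblast, feeder and mesenchymal genes 6 were higher and 35 lower (median -0.60, and -0.53 on the b arrays), with 0 called. The list mean was 6.80, 6.95, 6.27 and 7.31 in iPSC 1 to 4, against 8.89, 6.90, 6.52 and 7.69 in gPSC 1 to 4, and 10.2 in the fibroblast line. gPSC 1 stood above all others and the remaining gPSC lines lay among the iPSC lines or just above. Without gPSC 1 the median was -0.21, with 10 higher and 31 lower. In cultures that may hold feeder cells, fewer cells of a type and less RNA per cell cannot be told apart.

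Lcn2, a secreted lipocalin of the acute-phase response, had the largest difference of the named genes after Tdgf1. It had 6.52, 9.30, 5.29 and 6.85 in iPSC 1 to 4, against 13.14, 8.35, 7.21 and 10.89 in gPSC 1 to 4 (-2.91 ± 1.27, adjusted p = 0.627). gPSC 1 and gPSC 4 were above every iPSC line and the other 2 gPSC lines were not. Mmp3, a matrix metalloproteinase, had 7.63, 9.64, 5.14 and 8.75 in the iPSC lines, against 12.58, 9.30, 7.38 and 11.10 in the gPSC lines, in the same order within each group. Its 3 probes gave -2.30, -2.33 and -2.33.

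The same order, with gPSC 1 highest and gPSC 4 second, held for Dcn (decorin), Mgp (matrix Gla protein), Mmp13, Hp (haptoglobin), the chemokine genes Cxcl5 and Ccl2 and the interferon-stimulated gene Ifit3. Their differences ran from -1.78 ± 1.07 for Ifit3 to -2.34 ± 1.12 for Cxcl5. Some of these were low or absent in iPSC: Cxcl5 was above background on 3 of the 8 arrays of iPSC lines and 7 of the 8 of gPSC lines, and Ccl2 on 4 and 6 in the same order. Dcn had 7.04, 8.71, 5.50 and 8.17 in the iPSC lines, against 11.68, 8.28, 7.33 and 10.06 in the gPSC lines. The fibroblast line itself was at 7.30 for Dcn and 4.27 for Lcn2, below gPSC 1 in both.

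Of 27 interferon response genes 2 were higher and 25 lower in iPSC (median -0.29, and -0.14 with 5 higher and 22 lower without gPSC 1, but -0.49 without gPSC 3). Usp18, an interferon-induced protease, had 6.71, 8.89, 4.40 and 5.67 in the iPSC lines, against 9.26, 7.81, 4.30 and 8.86 in the gPSC lines. iPSC 2 shared the high level of gPSC 1 and gPSC 4, and iPSC 3 and gPSC 3 were near background. Stat2, a transcription factor of the interferon pathway, was 1 of the 2 genes that were higher (0.46 ± 0.17). Among mesenchymal genes that were higher, Ccn2, a matricellular target gene of YAP signalling, differed by 0.60 ± 0.18, and Cdh11, a mesenchymal cadherin, was among the lower ones (-0.47 ± 0.17).

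**Figure D5:**
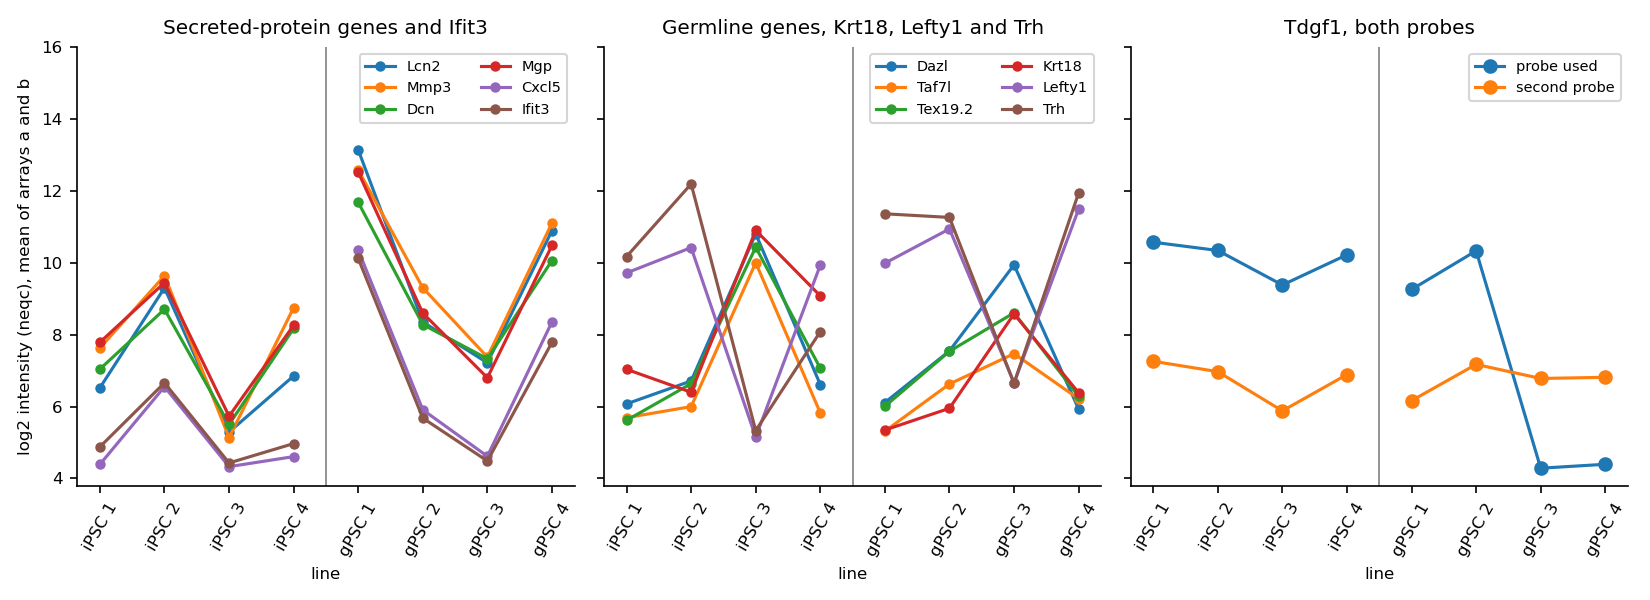
Log2 intensity by line, iPSC lines left and gPSC lines right of the grey line, for 6 genes high in gPSC 1 (left), 6 genes in which iPSC 3 and gPSC 3 stand apart (middle) and both Tdgf1 probes (right); levels of different genes or probes are not comparable. In the left panel gPSC 1 is highest and gPSC 4 second, and in the right panel only the probe used drops in gPSC 3 and gPSC 4.

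No germline gene met the full criterion. In the list below, 1 gene was at least 2-fold lower in iPSC, against 102 of 10660 genes tested. All iPSC lines lay below all gPSC lines for 1 gene of the list, against 196 of all genes (1.84%). Of 38 spermatogonial stem cell and germline genes 23 were higher and 15 lower in iPSC (median 0.09, from 0.01 without gPSC 1 to 0.18 without gPSC 3), none called. Dazl, whose product binds germ-cell mRNAs and promotes their translation, had 6.07, 6.71, 10.80 and 6.61 in the iPSC lines, against 6.11, 7.55, 9.94 and 5.93 in the gPSC lines, and 11.96 and 12.08 in GSC. One line of each route, iPSC 3 and gPSC 3, lay well above the others but below the GSC lines, and the difference of 0.17 ± 1.15 turned to -0.92 without iPSC 3. Taf7l, a germ-cell form of a TFIID subunit, had 5.69, 5.997, 10 and 5.82 in the iPSC lines, against 5.31, 6.63, 7.47 and 6.21 in the gPSC lines. Tex19.2, a testis-expressed gene, had 5.62, 6.64, 10.43 and 7.06 in the iPSC lines, against 6.005, 7.54, 8.61 and 6.28 in the gPSC lines. The GSC lines had 11.77 and 11.92 for Taf7l. For Tex19.2 they had only 5.43 and 5.38, below every iPSC and gPSC line, so Tex19.2 does not mark the source cell here. In all 3 genes the same pair of lines was highest.

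Ddx4, a germ-cell RNA helicase, averaged 5.54 ± 0.64 in iPSC and 5.13 ± 0.60 in gPSC lines (SD, n = 4 each), far below 8.14 and 7.87 in GSC. Stra8, the retinoic acid target that gates meiosis, had 5.40, 5.68, 6.75 and 4.995 in the iPSC lines, against 4.54, 4.42, 5.61 and 4.34 in the gPSC lines. It was detected on 8 of 8 iPSC arrays and 2 of 8 gPSC arrays, those of gPSC 3, and differed by 0.98 ± 0.41 (adjusted p = 0.627). Of 15 meiosis genes 13 were higher and 2 lower (median 0.08, with 9 higher and 6 lower on the b arrays, and 0.01 with 8 higher and 7 lower without gPSC 1 but 0.21 without gPSC 2), among them the testis-enriched chaperone gene Hspa2 (0.72 ± 0.31).

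Among imprinted genes, 7 of 16 paternally expressed ones were higher and 9 lower (median -0.04, from -0.14 without gPSC 3 to 0.04 without iPSC 4), and 10 of 13 maternally expressed ones were higher and 3 lower (median 0.19, and 0.02 with 7 higher and 6 lower without iPSC 3), none called. Ndn, the paternally expressed necdin gene, had 7.64, 8.26, 8.18 and 7.70 in the iPSC lines, against 9.50, 8.70, 8.27 and 8.95 in the gPSC lines. Every iPSC line was below every gPSC line, by a thin margin between iPSC 2 and gPSC 3. On the a arrays alone the groups overlapped. The difference was -0.91 ± 0.25 (adjusted p = 0.627). Grb10, a growth-restraining adaptor gene expressed mainly from the maternal allele, had 6.31, 6.94, 6.10 and 6.74 in the iPSC lines, against 8.63, 7.27, 6.71 and 7.55 in the gPSC lines. Its groups overlapped at gPSC 3, and the difference was -1.02 ± 0.38, or -0.65 without gPSC 1. ESC had 9.01 and the fibroblast line 11.60. Ndn and Grb10 were both high in fibroblasts (11.20 for Ndn) and highest among the 8 lines in gPSC 1, the line with the highest fibroblast markers, and the part of those cells in these values was not tested.

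Respiratory chain and cell division genes differed little. Of 37 respiratory chain and ATP synthase genes 20 were higher and 17 lower (median 0.00), and for all 37 the 95% interval lay within 2-fold, as it did for 85.5% of all genes. The same was true of all 23 mitosis and replication genes (12 higher, 11 lower). For DNA methylation and chromatin genes (19 higher, 17 lower) it was true of 31 of 36 (86.1%), about the share of all genes. The medians of these 3 lists stayed between -0.05 and 0.14 without single lines. In the chromatin list Phf19, a Polycomb-associated protein gene, differed by 0.71 ± 0.23. Of 20 glycolysis and glucose uptake genes 18 were higher and 2 lower in iPSC (median 0.33), and without gPSC 1 the median was 0.10 with 12 higher and 8 lower, and without iPSC 3 it was 0.20. Aldoa, an aldolase gene, had 12.86, 12.18, 13.24 and 13.04 in the iPSC lines, against 10.97, 12.65, 13.03 and 11.73 in the gPSC lines. gPSC 1 and gPSC 4 were the low lines and the difference was 0.73 ± 0.43. The muscle enolase gene Eno3 had every iPSC line above every gPSC line by a small amount (0.38 ± 0.14), but the groups overlapped on the a arrays.

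In the remaining lists 0 genes were called. Of 18 cholesterol synthesis genes 16 were higher and 2 lower (median 0.23, but 0.14 without iPSC 1 and 0.15 without gPSC 1), among them Insig1, a feedback regulator of the pathway (0.48 ± 0.17). Of 22 p53 targets 13 were higher and 9 lower (median 0.06, from -0.03 without gPSC 2 to 0.12 without gPSC 3), with the DNA damage gene Gadd45a at 0.57 ± 0.18. Eda2r, a receptor of the TNF receptor family in the same list, was lower in every iPSC line (-0.61 ± 0.12, adjusted p = 0.597), but on the b arrays the groups overlapped and the difference was -0.36, against -0.86 on the a arrays. Of 22 genes for G1 cyclins and CDK inhibitors 11 were higher and 11 lower (median 0.02, at most 0.08 without single lines). The amino acid stress list had 10 of 23 higher and 13 lower (median -0.10, from -0.17 without iPSC 2 to 0.09 without gPSC 2), and the sex-linked list 7 of 10 higher and 3 lower (median 0.05). Of 10 testis somatic genes 3 were higher and 7 lower (median -0.13, and -0.01 without gPSC 1), and of 9 blood, endothelial and neural genes 2 were higher and 7 lower (median -0.14, and -0.27 on the b arrays and -0.22 without gPSC 2). In this last list, Map2, a microtubule-associated protein gene of neurons, had 5.07, 5.29, 5.09 and 5.06 in the iPSC lines, against 5.49, 5.75, 5.71 and 5.57 in the gPSC lines. Its groups were separate in the means and on the b arrays but overlapped on the a arrays, the difference was -0.50 ± 0.10 (adjusted p = 0.597), and the other 2 Map2 probes were at background on most arrays. Tek, an endothelial receptor gene, differed by -0.79 ± 0.26 with overlapping groups.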

How the data were processed

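Total RNA was amplified to biotinylated cRNA and hybridized to Illumina BeadChips, per the labels' protocols. The deposited table holds, per probe and array, an intensity that was neither normalized nor background-subtracted and a detection p-value; per the submitters' processing notes the authors used BeadStudio 3.2 and lumi. The authors' own processed log2 values served as an alternative. Here neqc of limma 3.58.1 (R 4.3.3, offset 16) corrected the background, for which it deduced the negative controls from the detection values, and then quantile normalized and log2-transformed the intensities. A probe was kept if some line had a detection p below 0.05 on array a as well as b, as 15917 of 25697 did. The probe table given with the platform named the genes, and the probe with the highest mean over all lines stood for a gene, which left 10660 genes.

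Arrays a and b of a line were averaged, so the line was the replicate. limma was fitted to all 13 lines with 1 mean per group. The single-line groups add nothing to the spread, which came from the iPSC, gPSC and GSC lines, assumed to vary alike. The moderated test had 9.29 degrees of freedom. Calls needed a 2-fold difference and a two-sided p below 0.05 after Benjamini-Hochberg adjustment over all genes tested. The code was tested on simulated data. Precision is limited by how many lines and arrays there are.

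Named genes were those at least 2-fold different and non-overlapping in the means and on the b arrays, a fixed set of 11 genes, the 3 members of each of 25 lists with the smallest unadjusted p, and the 8 genes with the widest range in each group; not all of these are described. The members, lists and rule were chosen with earlier results of these data known. Rhbdl1, Grb2 and Rad21 were chosen after their values were seen. The labels do not say whether same-numbered lines belong together across routes, and lines were treated as unpaired. Correlations of same-numbered deviations were -0.07, -0.07, 0.68 and -0.07, which cannot show whether such lines share an origin. Alternatives covered the arrays used, the unit of the fit, normalization, detection filter, probe choice, variance model, a replicate block and leaving out each line.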

Additional observations from a re-analysis of the deposited data

Results flagged for a closer look

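In 15 of 120 groups of 4 lines, the highest or lowest line lay apart from the other 3 by Dixon's criterion. Chance flags about 1 in 20 groups, and many of the named genes were picked for a wide range within a group, so the number of such groups carries no test.

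Among iPSC lines, iPSC 3 stood apart for Dazl (10.8, others 6.07 to 6.71), Taf7l (10, others 5.69 to 6), Gata2 (6.64, others 5.56 to 5.62) and, on the low side, Lefty1 (5.15, others 9.72 to 10.4). iPSC 2 stood apart for Dpp4 (7.05, others 6.23 to 6.28), Cxcl5 (6.55, others 4.33 to 4.61), Map2 (5.29, others 5.06 to 5.09) and, on the low side, Hspa2 (7.78, others 8.53 to 8.58). iPSC 4 was low for Tcstv1 (7.21, others 8.40 to 8.63) and Rhox5 (10.7, others 12.0 to 12.1), and iPSC 1 was high for Pltp (9.72, others 8.22 to 8.41).

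Among gPSC lines, gPSC 3 stood apart for Stra8 on the high side (5.61, others 4.34 to 4.54) and for Spint1 (5.59, others 6.10 to 6.15) and Trh (6.64, others 11.3 to 11.9) on the low side. gPSC 4 was low for Stat2 (5.52, others 6.05 to 6.12).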

How the results depend on the processing

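The count of genes called, 0 in the line means, was also 0 on the b arrays, with the 8 lines only, log2 quantile normalization, no detection filter, detection within the 8 lines, every probe, the intensity trend, the replicate block and each line left out (unadjusted p under 0.05 for 434 genes without gPSC 4 to 2015 without gPSC 3). It was 3 on the a arrays (Rhbdl1, Olfr996, Iapp), 1 with the authors' values (Iapp) and 1 without a fold threshold. With the line as a random block over 26 arrays it was 3 (Stard8, Gprc5a, Dpp4), and 1 with an array set term added (Stard8). These last fits draw on both technical arrays of each line and on no more lines. In the random block fit the SE of Stard8 was 0.253, against 0.353 in the line means. The replicate block, for lines whose pairing the labels do not give, gave 891 genes at an unadjusted p under 0.05 against 830. Over the 15 alternatives computed for single genes, the limma adjusted p ran from 0.00508 to 0.918 for Stard8 and from 0.0336 to 0.918 for Gprc5a and Dpp4. For Iapp it ran from 0.000711 to 0.861.

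Non-overlapping genes at least 2-fold higher numbered 5, but 1 with log2 quantile normalization, 22 with the authors' values and 4 to 68 without single lines. Those lower numbered 0, but 7 on the a arrays, 22 with the authors' values and 0 to 40 without single lines. Genes called for the a minus b difference numbered 5, but 0 with log2 quantile normalization, 9 with the authors' values and 4 to 7 without single lines. The causes were not tested.

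For 60 named genes under 15 alternatives, 885 values kept sign and side of the threshold, 6 passed it and 9 changed sign, all without single lines: Pou5f1 ran from -0.023 to 0.146, Dazl from -0.92 to 1.02, Taf7l from -0.57 to 0.87, Tex19.2 from -0.67 to 0.94 and Lefty1 from -2.0 to 0.25. Of the list medians, 271 moved by less than the spread between lines and 4 by more.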
